A study of Caenorhabditis elegans with 18 samples.

Results

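Thiabendazole (TBZ) was compared with its solvent, dimethyl sulfoxide (DMSO), in whole Caenorhabditis elegans by RNA sequencing. The comparison used 6 of the 18 libraries of the study: the 3 TBZ libraries, which carry the replicate numbers 2 to 4, and the 3 DMSO libraries, numbered 1 to 3. Every gene in the deposited table was eligible, and 17484 of 20395 genes had enough reads to be tested. The other 12 libraries were exposed to albendazole (ABZ), mebendazole (MBZ), fenbendazole (FBZ) or oxfendazole (OxBZ) and entered the estimate of the spread between replicates.

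All 6 groups were worms of one strain, CB3474 ben-1(e1880)III, so that the solvent controls were ben-1 mutants as well and no wild-type worms were compared. About 20000 first-stage larvae per culture were grown in liquid with E. coli OP50 at 20 °C for about 70 h. The drug, dissolved in DMSO, was then added at 1.13 mM for 4 h, and the controls received the solvent. The protocol describes adults, whereas the source label describes mixed larval stages. Transcripts of the vitellogenin list held 3.39% to 7.82% of the DMSO counts and 1.81% to 4.82% of the TBZ counts. The list joins the vit genes, which encode yolk proteins made by adult hermaphrodites, with the yolk receptor gene rme-2. Sperm genes, germline genes and the larval gene lin-28 were detected in both groups, with lin-28 at 67.6 ± 15.8 CPM (read counts scaled to the size of the library, SD, n = 3) in DMSO and 71.5 ± 4.00 CPM in TBZ. The detection of lin-28 alone does not show that larvae were present, and the stage was not tested. Whole worms were pooled, so fewer cells of a type and less RNA per cell cannot be told apart in any of the results. The replicates are labelled as biological, but no source ties each library to a culture of its own, and the p-values then measure only how much these libraries differed.

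Benzimidazoles kill nematodes mainly by binding beta-tubulin, and in C. elegans the sensitive beta-tubulin is encoded by ben-1. Thiabendazole carries a thiazole ring on the benzimidazole core, where the other 4 drugs of the study carry a methyl carbamate. Worms, like other animals, handle such compounds with cytochrome P450 enzymes that oxidise them, with transferases that add a sugar or glutathione, and with ABC transporters that export them. In C. elegans the P450 CYP-35D1 has been reported to hydroxylate thiabendazole, and the nuclear hormone receptor NHR-176 to act upstream of it.

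The 6 libraries held 60406271 to 65867218 counts, within the range of 57010263 to 67277284 over all 18. The replicates were not equally alike. TBZ replicates 3 and 4 differed from each other with a standard deviation of 0.293 over genes on the log2(CPM + 0.1) scale, whereas TBZ replicate 2 differed from them by 0.628 and 0.627. TBZ replicate 2 lay closer to DMSO replicate 1, at 0.487, than to either of the other TBZ libraries. DMSO replicate 2 stood apart from DMSO replicates 1 and 3, at 1.08 and 0.969, and sperm genes held 0.624% of its counts against 0.0997% and 0.176% there and 0.14% to 0.158% in TBZ. The part of these library differences in the results was not tested beyond leaving libraries out.

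Of the 17484 genes tested, 535 (3.06%) were called higher in TBZ and 554 (3.17%) lower at an adjusted p under 0.05 (edgeR quasi-likelihood test), 1089 (6.23%) in all. Of these, 328 rose and 209 fell at least 2-fold. The median log2 change over all genes tested was 0.01, and 3711 genes had an unadjusted p under 0.05. In 474 of the genes called higher and 542 of those called lower, all 3 TBZ libraries lay beyond all 3 DMSO libraries. The same separation was found in 2010 (11.5%) and 1874 (10.7%) of all genes tested. When each of the 6 libraries was left out in turn, 197 of the higher and 152 of the lower genes were called every time. A fit to these 6 libraries alone called 11 genes higher and 1 lower, with 2282 genes at an unadjusted p under 0.05. All calls used the spread of all 6 groups as the yardstick, taken to be alike in every group, which was not tested. Most calls were not made from the 6 libraries alone, and genes that were also called there are named as such. Adjusted p-values are from the fit to all 18 libraries unless stated.

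**Figure D1:**
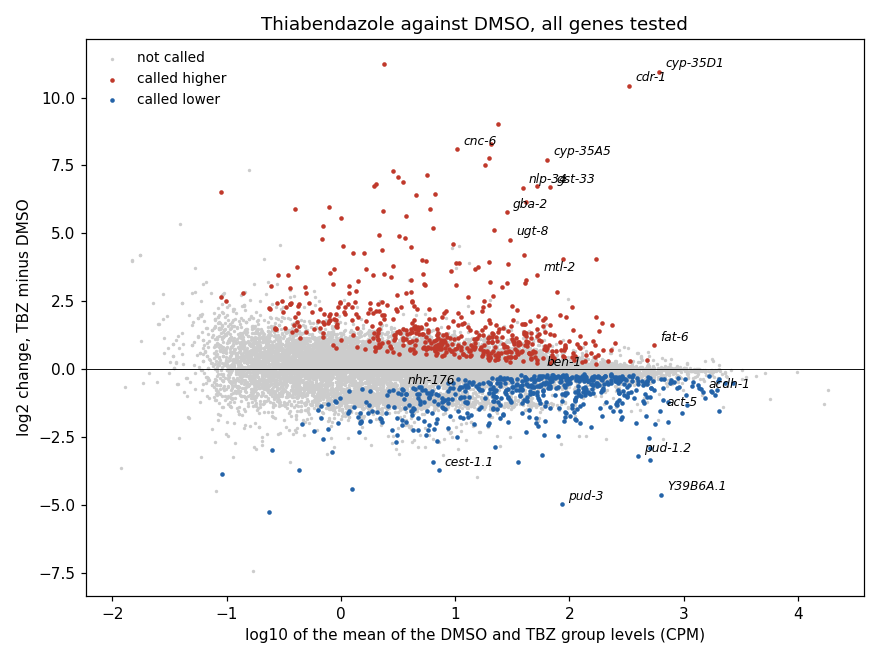
Each point is a gene tested; the horizontal axis is the log10 of the mean of the DMSO and TBZ group levels in CPM and the vertical axis is the log2 change, TBZ minus DMSO. Red points are the 535 genes called higher and blue points the 554 called lower; cyp-35D1 and cdr-1 stand at the top and pud-3 and Y39B6A.1 at the bottom.

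The transcript of cyp-35D1, the P450 reported to hydroxylate thiabendazole, went from almost no reads to a high level. Its level was 0.664, 0.359 and 0.794 CPM in DMSO replicates 1 to 3 and 1288, 1155 and 1210 CPM in TBZ replicates 2 to 4. The 3 TBZ libraries were close to each other and far above every DMSO library. The log2 change was 10.96 ± 0.30 (SE), or 1989-fold, with an edgeR adjusted p of 3.6e-11. From the 6 libraries alone cyp-35D1 was also called (edgeR adjusted p = 0.000854). The transcript of nhr-176, the receptor placed upstream of it, moved the other way. It stood at 4.68, 4.30 and 3.79 CPM in DMSO and at 2.99, 2.24 and 2.52 CPM in TBZ, so that all TBZ libraries lay below all DMSO libraries. It fell by 0.72 ± 0.14 on the log2 scale (edgeR adjusted p = 0.00648) and was called with any 1 of the 6 libraries left out.

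The cyp-35 family, P450 genes that respond to many foreign compounds, rose with few exceptions. Of 10 members tested, 8 were called higher and none lower, with a median log2 change of 4.82, and all 8 were called with any 1 library left out. The gene cyp-35A5 rose from 0.609 ± 0.192 CPM (SD, n = 3) in DMSO to a mean of 128 CPM in TBZ, where the lowest library had 118 CPM and the highest 140 CPM, a log2 change of 7.70 ± 0.37 (edgeR adjusted p = 2.32e-08). It was called from the 6 libraries alone, as was cyp-35A1, whose log2 change was 5.83. For cyp-35A3 the spread was wide: 0.0664, 0.448 and 0.0324 CPM in DMSO against 8.97, 40.3 and 69.4 CPM in TBZ, with TBZ replicate 2 lowest of the TBZ libraries. The log2 change of cyp-35A3 was 7.79 ± 0.83, of cyp-35A4 5.90, of cyp-35B2 3.81, of cyp-35C1 3.29 and of cyp-35A2 1.58. The remaining members, cyp-35B1 and cyp-35B3, had log2 changes of -0.34 and -1.05 and were not called. Reads of close paralogs in this family may have been divided between them by the counting.

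Summed over the 10 cyp-35 genes, the level was 30.9, 32.6 and 33.1 CPM in DMSO and 1492, 1461 and 1648 CPM in TBZ. The sum in TBZ was mostly cyp-35D1. Over all 74 P450 genes, 19 were called higher and 9 lower, beside 3.06% and 3.17% over all genes tested. With any 1 library left out, 11 and 3 of these were called, and the median log2 change was 0.22. The cyp-13 branch went in both directions, with 4 of 13 members higher and 2 lower. The 2 that fell, cyp-13A5 and cyp-13A11, had log2 changes of -1.79 ± 0.29 and -2.31 ± 0.34 and held with any 1 library left out. Among those that rose, cyp-13A6 had a log2 change of 2.48 ± 0.52 that was lost without TBZ replicate 4 (edgeR adjusted p = 0.0674) and without DMSO replicate 2 (edgeR adjusted p = 0.055). The call of cyp-13A8 was lost without any one of 5 of the libraries, with adjusted p up to 0.136, and TBZ replicate 2 had no read of it.

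UDP-glucuronosyltransferases, which attach a sugar to lipophilic compounds, included several strong rises. Of 66 members tested, 15 were called higher and 6 lower, beside 3.06% and 3.17% over all genes tested. Of the 15, 14 were called with any 1 library left out. The median log2 change of the family was 0.05, and 45 members were not called. The level of ugt-8 was 1.69, 2.44 and 2.32 CPM in DMSO and 64.1, 61.0 and 50 CPM in TBZ. All 3 TBZ libraries stood together far above DMSO, and the log2 change was 4.76 ± 0.21 (edgeR adjusted p = 9.79e-09). The neighbouring ugt-9 rose by 4.61 ± 0.29 and ugt-67, at 0 to 0.0973 CPM in DMSO, by 7.08 ± 0.56. In the order of tested protein-coding genes along the chromosome, ugt-9, ugt-10, ugt-67, ugt-8 and ugt-14 formed 1 run of 5 genes that were all called higher, with log2 changes of 2.29 to 7.08. Another member, ugt-34, rose by 4.54 ± 0.48. Both ugt-8 and ugt-9 were called from the 6 libraries alone.

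**Figure D2:**
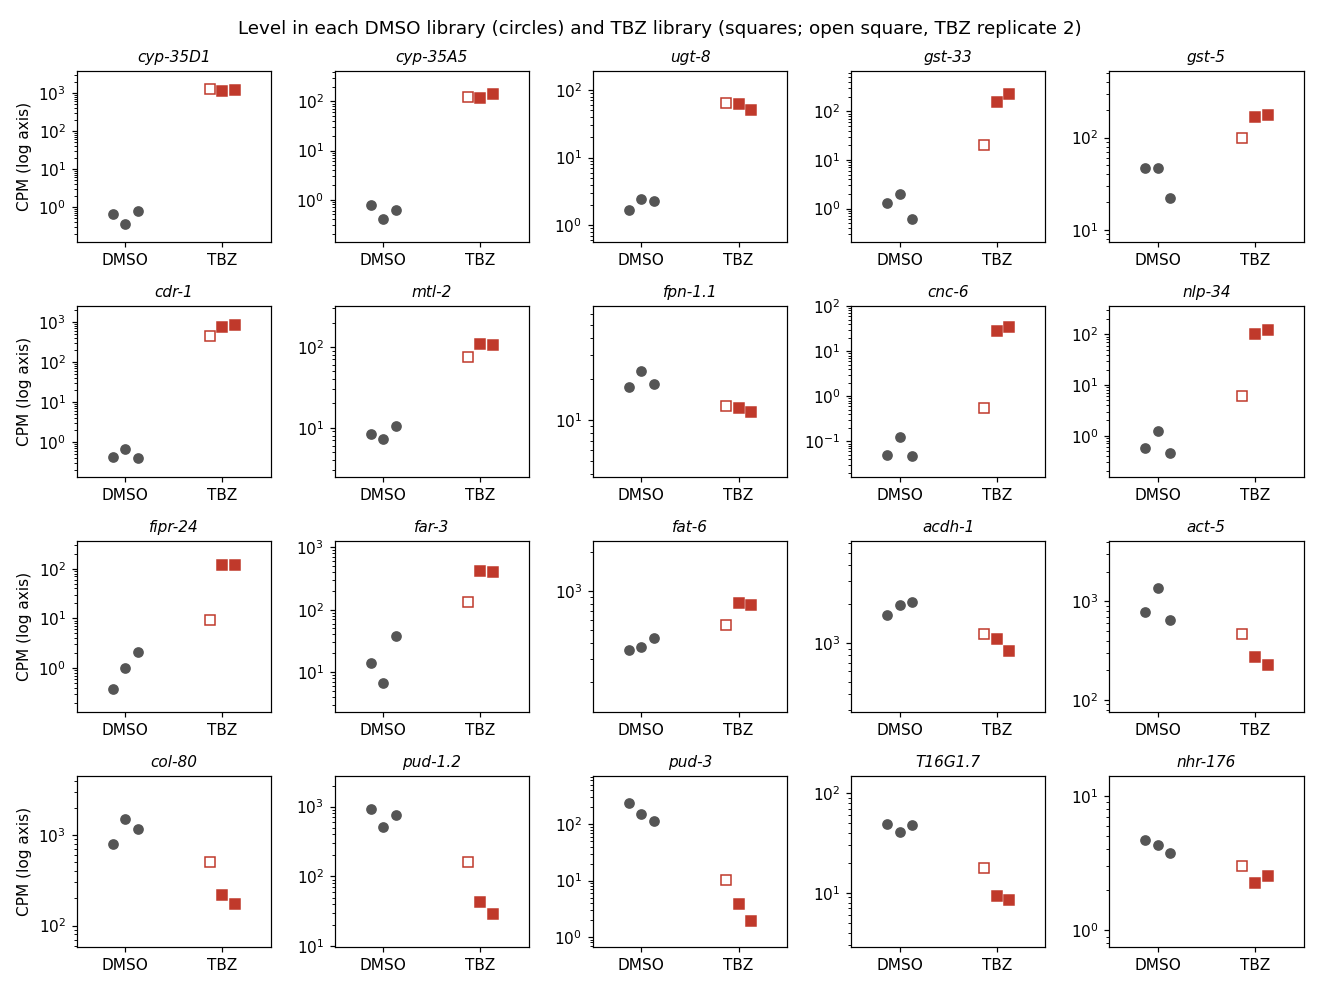
Each panel shows 1 gene; the vertical axis is the level in CPM on a log axis, grey circles are the 3 DMSO libraries and red squares the 3 TBZ libraries, with TBZ replicate 2 as the open square. The TBZ libraries coincide for cyp-35D1, cyp-35A5 and ugt-8, whereas TBZ replicate 2 lies between DMSO and the other TBZ libraries for cnc-6, nlp-34 and gst-33.

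Glutathione S-transferases, which couple glutathione to reactive compounds, split almost evenly. Of 47 tested, 8 were called higher and 7 lower, beside 3.06% and 3.17% over all genes tested. The median log2 change was -0.11, and 4 and 1 of the calls held with any 1 library left out. The largest rise was that of gst-33, from 1.28, 2.03 and 0.616 CPM in DMSO to 20.3, 157 and 227 CPM in TBZ. TBZ replicate 2 was again the lowest TBZ library, but it was above every DMSO library. The log2 change of gst-33 was 6.70 ± 0.73 (edgeR adjusted p = 9.96e-05), and gst-8 rose by 4.39 ± 0.74. The adjacent genes gst-27, gst-28 and gst-29 were all called lower, with log2 changes of -1.99 to -0.77. None of these falls was called with every library left out in turn. The only fall of the family that was is that of gst-34, with a log2 change of -2.30. From the list of target genes of SKN-1, the worm counterpart of the mammalian Nrf factors, 3 of 22 were called higher and 1 lower, beside the same shares. The largest of these was gst-5, at 38.9 ± 14.4 CPM (SD, n = 3) in DMSO and 148 ± 41.7 CPM in TBZ, a log2 change of 1.93 ± 0.26. The gene overlaps nos-1 on the other strand, and no source used here says whether the counting used strand. The same holds for cest-35.2, alh-8, fat-5, cdo-1, act-4, ifc-2, col-19, col-92, cyp-13A6 and T16G1.7, each of which overlaps a gene on the other strand. Both dhs-20 and ifc-2 have an annotated overlap on each strand.

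Carboxylesterases, which split ester bonds, had 5 of 32 members higher and 4 lower, beside 3.06% and 3.17% over all genes tested. In each direction 3 of these carboxylesterase calls held with any 1 library left out. The largest fall was in cest-1.1, from 7.84, 11.1 and 21 CPM in DMSO to 1.22, 0.894 and 0.896 CPM in TBZ. All TBZ libraries were below all DMSO libraries, and the log2 change was -3.73 ± 0.38 (edgeR adjusted p = 5.97e-05). A second member, cest-31, fell by 1.96 ± 0.34 on the log2 scale, and cest-35.2 rose by 2.19 ± 0.21. Of 17 flavin-containing monooxygenases and aldehyde dehydrogenases, 4 were called higher and 6 lower, beside the same shares over all genes. The dehydrogenase gene alh-5 rose by 1.76 ± 0.25 and the monooxygenase gene fmo-3 by 1.43 ± 0.23. Of 30 short-chain dehydrogenases 4 were higher and 5 lower, again beside those shares, and dhs-20 had a log2 change of -2.06 ± 0.39.

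Exporters move compounds out of cells. None of the 13 P-glycoprotein genes tested was called in either direction by edgeR, with a median log2 change of 0.25. At an unadjusted p under 0.05 there were 4, DESeq2 called 1 higher and 1 lower, and limma-voom 2 and 3. Over all 17484 genes tested these counts were 3711, then 931 and 1132, then 938 and 1210. Of 37 other ABC transporters, 1 was called higher and 3 lower, beside 6.23% called over all genes tested. The fall of mrp-3, a multidrug resistance protein of that class, was from 30.3, 38.6 and 25.8 CPM to 15.8, 8.73 and 10.1 CPM, a log2 change of -1.45 ± 0.24 that held with any 1 library left out. The one rise, mrp-2, was 0.81 ± 0.17 on the log2 scale and was lost without TBZ replicate 4 (edgeR adjusted p = 0.0623). Nuclear hormone receptors, the class of transcription factor to which NHR-176 belongs, had 20 of 224 members higher and 6 lower. Over all genes tested 3.06% were higher and 3.17% lower, and the share of receptors called lower was near the latter. With any 1 library left out, 5 and 3 of the receptor calls held. The largest rise at a measurable level was in nhr-205, by 1.85 ± 0.25, followed by nhr-275 at 1.68 ± 0.35, a call lost without TBZ replicate 4 (edgeR adjusted p = 0.0731) and without DMSO replicate 3 (edgeR adjusted p = 0.0515). A further receptor gene, nhr-214, had no read in DMSO and 0.0293 to 0.269 CPM in TBZ, which is at least 10.7-fold higher against a floor of 3 counts over the DMSO group. That call was lost without TBZ replicate 3, TBZ replicate 4 or DMSO replicate 2, with adjusted p up to 0.0613. On its own strand nhr-214 overlaps nhr-26 and another gene.

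Genes of metal exposure gave another of the largest rises. The cadmium-responsive gene cdr-1 was at 0.415, 0.645 and 0.389 CPM in DMSO and at 435, 742 and 828 CPM in TBZ, a log2 change of 10.44 ± 0.37 (edgeR adjusted p = 5.84e-10). All 3 TBZ libraries were far above all 3 DMSO libraries. The metallothionein gene mtl-2, whose small protein binds zinc and cadmium, rose from 8.44, 7.32 and 10.6 CPM to 75, 108 and 105 CPM. Its log2 change was 3.45 ± 0.27 (edgeR adjusted p = 6.24e-06), and both cdr-1 and mtl-2 were called from the 6 libraries alone. The other metallothionein, mtl-1, was at 69.6 ± 92.3 CPM in DMSO and 28.2 ± 15.2 CPM in TBZ (SD, n = 3), with the DMSO libraries far apart, and was not called. The list of 14 metal-response genes thus had 3 called higher and 2 lower, beside 3.06% and 3.17% over all genes tested. Its median log2 change was -0.05. The third rise, cdr-4, was 1.88 ± 0.48 and was lost without TBZ replicate 3, TBZ replicate 4, DMSO replicate 1 or DMSO replicate 3, with adjusted p up to 0.119. The sister gene cdr-2 had a log2 change of -1.79 ± 0.43, which was lost without TBZ replicate 3, TBZ replicate 4, DMSO replicate 2 or DMSO replicate 3, with adjusted p up to 0.111.

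Of 13 iron-handling genes 2 were called higher and 2 lower, beside 3.06% and 3.17% over all genes tested. A single call held with any 1 library left out. This was the ferroportin gene fpn-1.1, an iron exporter, at 17.5, 22.8 and 18.4 CPM in DMSO and 12.7, 12.2 and 11.4 CPM in TBZ. Its log2 change was -0.70 ± 0.11 (edgeR adjusted p = 0.00199), and it overlaps npp-13 on the other strand. The ferritin gene ftn-1, an iron store, had a log2 change of -1.16 ± 0.31, and the importer gene smf-3 one of 1.17 ± 0.32. The ftn-1 call was lost without any 1 of the 6 libraries, with adjusted p up to 0.107. The smf-3 call was lost without TBZ replicate 3, TBZ replicate 4, DMSO replicate 2 or DMSO replicate 3, with adjusted p up to 0.141.

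Antimicrobial peptide genes, which the epidermis and gut switch on in infection and wounding, were called in both directions. Of 50 tested, 7 were called higher and 2 lower, beside 3.06% and 3.17% over all genes tested. The median log2 change was 0.48, and 5 of the 7 were called with any 1 library left out. The caenacin gene cnc-6 was at 0.0498, 0.126 and 0.0486 CPM in DMSO and at 0.557, 27.9 and 33.6 CPM in TBZ. TBZ replicate 2 was above DMSO but far from the other TBZ libraries, and the log2 change of 8.09 carried an SE of 1.4 (edgeR adjusted p = 0.00367). The same order held for nlp-34, at 0.565, 1.25 and 0.454 CPM in DMSO and 6.01, 103 and 122 CPM in TBZ. It also held for fipr-24, at 0.382, 1.00 and 2.08 CPM in DMSO and 9.32, 118 and 121 CPM in TBZ. The log2 changes of nlp-34 and fipr-24 were 6.67 ± 1.03 and 6.16 ± 0.86. For cnc-1, called with a log2 change of 5.65, TBZ replicate 2 at 0.205 CPM lay within the DMSO range of 0.0359 to 0.292 CPM.

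Several of the largest rises were in genes known only by sequence names. K08D10.13 had no read in any DMSO library and 1.05, 5.47 and 7.83 CPM in TBZ, at least 283-fold higher against a floor of 3 counts over the DMSO group. F48C1.9 was at 0, 0 and 0.259 CPM in DMSO and at 3.96, 61.9 and 75.2 CPM in TBZ. C37A5.6 and C37A5.5 were at 0.0664 to 0.341 CPM in DMSO and rose by 8.31 ± 1.11 and 7.52 ± 0.98 on the log2 scale. In all 4 of these genes TBZ replicate 2 was the lowest TBZ library and was above every DMSO library. Their edgeR adjusted p ran from 0.000483 to 0.000714.

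The position of TBZ replicate 2 was measured for every called gene as the percent of the change from the DMSO mean to the mean of TBZ replicates 3 and 4, on the log2(CPM + 0.1) scale. Its median was 55.1% over the 535 genes called higher and 62.6% over the 554 called lower. Among the higher genes, 98 had TBZ replicate 2 below 25% of the change, 266 between 25% and 75%, and 171 above 75%. Over the called UDP-glucuronosyltransferases the median was 83.9% and over the called metal genes 86.1%. Against the medians of all called genes, the values were 63.1% over the called P450 genes, 65.5% over the cyp-35 genes among them and 63.9% over the called glutathione S-transferases. The called antimicrobial peptides had a median of 41.2% and the called collagens 48.9%. These medians use the called genes only and describe the 3 libraries; they were not tested.

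**Figure D3:**
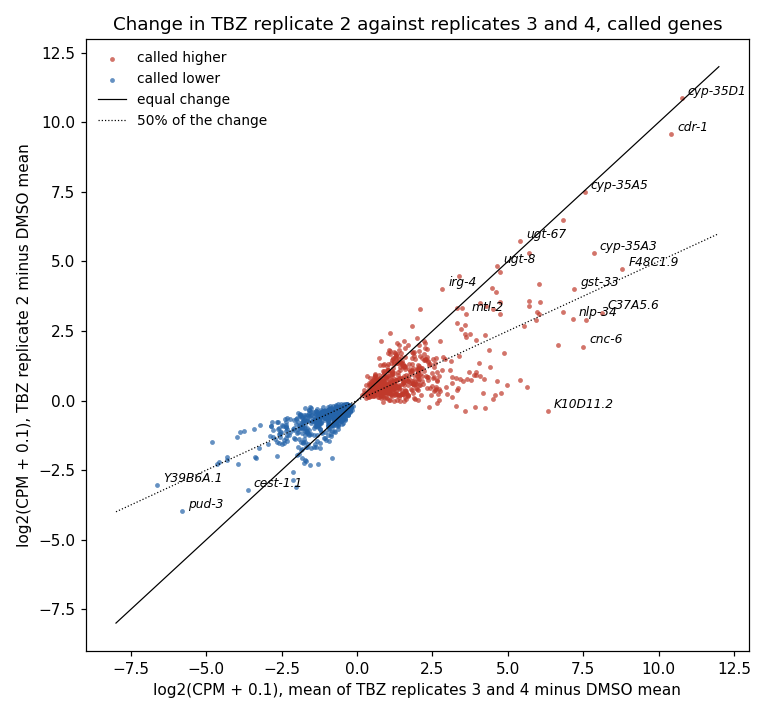
Each point is a gene called higher (red) or lower (blue); the horizontal axis is the mean change of TBZ replicates 3 and 4 from the DMSO mean and the vertical axis that of TBZ replicate 2, both on the log2(CPM + 0.1) scale. The solid line marks equal change and the dotted line 50% of it; cyp-35D1 and ugt-8 lie on the solid line, and cnc-6, C37A5.6 and K10D11.2 lie below the dotted one.

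K10D11.2 was called higher (log2 change 6.43 ± 1.28) although TBZ replicate 2 had 0.088 CPM, against 16.7 and 23 CPM in the other TBZ libraries and 0.108 to 0.233 CPM in DMSO. In the other immune lists the calls went both ways, beside 3.06% called higher and 3.17% lower over all genes tested. C-type lectins, secreted sugar-binding proteins many of which respond to pathogens, had 14 of 177 members higher and 8 lower. Of these, 6 and 3 were called with any 1 library left out. The largest rise there was in clec-206, from 0 to 0.161 CPM in DMSO to 7.26, 8.70 and 10.8 CPM in TBZ, a log2 change of 6.42 ± 0.58. Of 39 lysozymes and saposins 2 were higher and 5 lower, 0 and 2 of them with any 1 library left out. The saposin gene spp-2 fell by 1.58 ± 0.24 on the log2 scale. The lysozyme gene lys-2 had a log2 change of -1.56 ± 0.36 that was lost without TBZ replicate 3, TBZ replicate 4 or DMSO replicate 2, with adjusted p up to 0.105. Of 35 pals genes, a family that responds to intracellular pathogens, 1 was higher and 6 were lower, with a median log2 change of -0.72. With any 1 library left out, 0 and 3 of these were called. Of 152 F-box genes of the fbxa family 4 were higher and 15 lower, but only 1 of these falls held with any 1 library left out.

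Lipid genes were called in both directions. The desaturase gene fat-6, which makes oleic acid from stearic acid, was at 350, 372 and 440 CPM in DMSO and at 545, 813 and 778 CPM in TBZ. All TBZ libraries were above all DMSO libraries, and the log2 change was 0.88 ± 0.15 (edgeR adjusted p = 0.00353). The related fat-5, which acts on palmitic acid, had a log2 change of 1.41 ± 0.29, lost without TBZ replicate 3, TBZ replicate 4 or DMSO replicate 2 with adjusted p up to 0.0624. The close paralog of fat-6, fat-7, had a log2 change of -0.04 ± 0.49 and was not called. These were 2 calls among 16 desaturases and elongases, none of them lower, beside 3.06% called higher over all genes tested. In sphingolipid metabolism 1 of 18 genes was called higher and 1 lower, beside 3.06% and 3.17% over all genes tested, and 16 were not called. The 2 called genes act in opposite directions on glucosylceramide. The ceramide glucosyltransferase gene cgt-1, whose enzyme makes it, fell from 28.2, 29.9 and 32.6 CPM to 10.6, 10.2 and 7.19 CPM, by 1.70 ± 0.15 on the log2 scale (edgeR adjusted p = 1.52e-05). The glucosylceramidase gene gba-2, whose enzyme class breaks it down, went from 1.4, 0.932 and 0.713 CPM to 19.8, 55.4 and 91.2 CPM, a log2 change of 5.77 ± 0.52. It overlaps gba-1 on the other strand.

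Of 63 genes of fatty acid activation and oxidation, 1 was called higher and 4 lower, a share near the 6.23% over all genes, and some of those that fell act in propionate breakdown. The acyl-CoA dehydrogenase gene acdh-1 was at 1659, 1951 and 2061 CPM in DMSO and at 1180, 1078 and 865 CPM in TBZ, a log2 change of -0.86 ± 0.15. The hydratase gene ech-6 fell by 0.90 ± 0.14. The semialdehyde dehydrogenase gene alh-8 was at 1294, 1387 and 1468 CPM in DMSO and 725, 732 and 696 CPM in TBZ, and its log2 change of -0.95 ± 0.12 made it the only gene called lower from the 6 libraries alone. The one rise in the list of 63 was the acyl-CoA synthetase gene acs-14, by 0.80 ± 0.14. Of 16 genes of methionine and one-carbon metabolism, 3 were lower and none higher. One of them, cth-1, which makes cysteine from cystathionine, had a log2 change of -0.61 ± 0.11, and the cysteine dioxygenase gene cdo-1, which breaks cysteine down, rose by 0.72 ± 0.11.

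Among the gene lists, the largest share of falls was in the pud genes, small proteins named for their rise in worms with low insulin signalling. Of the 8 pud and bcmo genes tested, 7 were called lower and none higher, with a median log2 change of -3.19, and 6 were called with any 1 library left out. The level of pud-3 was 238, 154 and 114 CPM in DMSO and 10.2, 3.90 and 1.96 CPM in TBZ. The highest TBZ library lay far below the lowest DMSO library, and the log2 change was -4.98 ± 0.60 (edgeR adjusted p = 0.000251). The level of pud-1.2 was 910, 506 and 752 CPM in DMSO and 160, 43.5 and 29.0 CPM in TBZ, a log2 change of -3.22 ± 0.56. A pair of identifiers shares the symbol pud-2.2, with log2 changes of -3.35 and -3.42, and pud-1.1 fell by 3.16 ± 0.60. Because these genes include near-identical copies, their separate values are uncertain. Together with pud-4 (-2.11) they formed 1 run of 6 neighbouring genes that were all called lower. The carotenoid-cleaving oxygenase homologue bcmo-2 had a log2 change of -1.99 ± 0.31.

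Cuticle collagens, the structural proteins of the worm's outer layer, were called in 1 direction only. Of 169 tested, 24 were called lower and none higher, 8 of them with any 1 library left out, and the median log2 change was -0.75 against 0.01 over all genes. The level of col-80 was 798, 1496 and 1181 CPM in DMSO and 508, 219 and 172 CPM in TBZ, a log2 change of -1.95 ± 0.37. For col-93 it was 598, 1330 and 775 CPM against 365, 156 and 134 CPM, a log2 change of -2.04 ± 0.37. In both genes TBZ replicate 2 lay closest to DMSO without overlap. Both overlap another gene on the other strand, dph-2 and dhc-4. The adult collagen gene col-19 had a log2 change of -1.32 ± 0.26, and its call was lost without TBZ replicate 3 (edgeR adjusted p = 0.0583) or TBZ replicate 4 (edgeR adjusted p = 0.0563). As a share of all counts, collagens held 2.17%, 3.46% and 3.04% in DMSO and 2.03%, 1.51% and 1.27% in TBZ. The groups did not overlap, and the exact two-sided permutation p was 0.1, the smallest that 3 against 3 libraries can give (0.25 after adjustment over 5 gene classes).

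**Figure D4:**
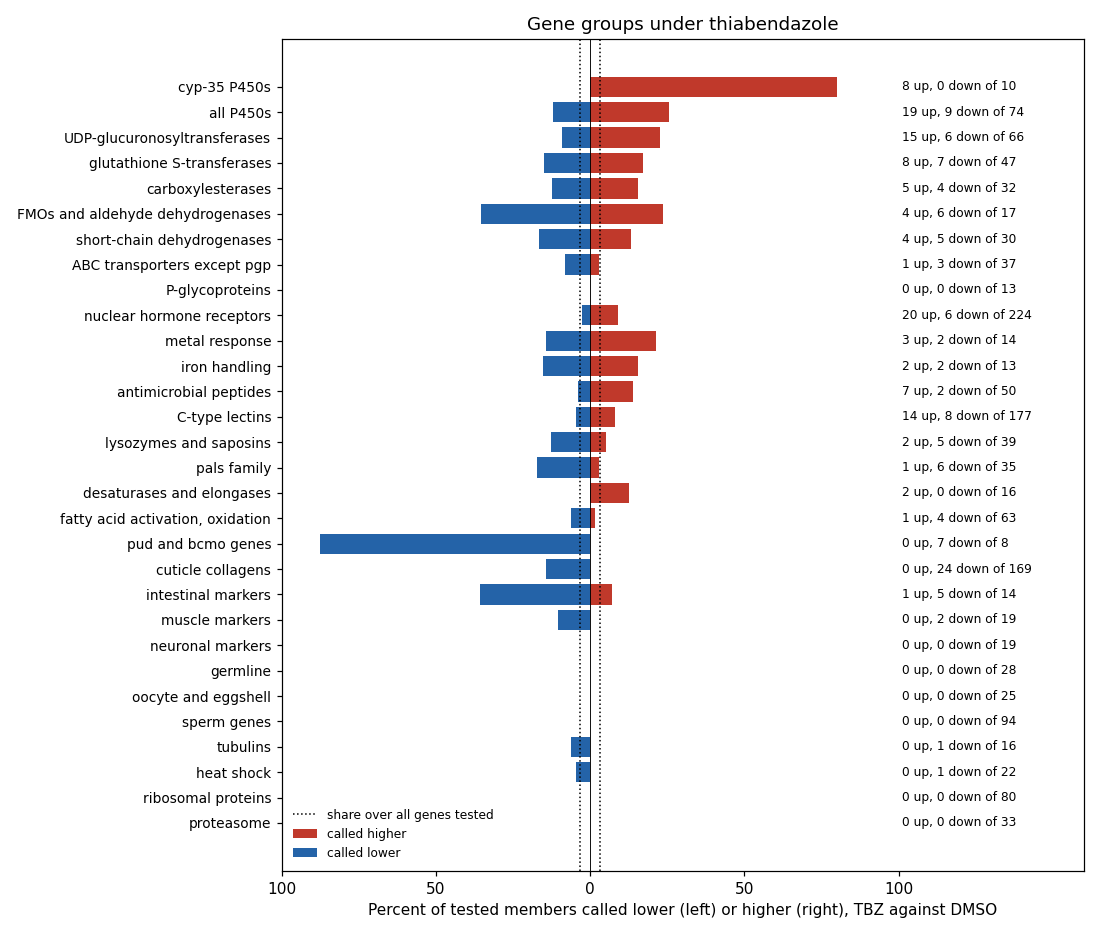
Bars give the percent of the tested members of each gene list called higher (red, to the right) or lower (blue, to the left) in TBZ against DMSO, with the counts at the right and dotted lines at the share over all genes tested (3.06% and 3.17%). The cyp-35 genes have the longest bar to the right (8 of 10) and the pud and bcmo genes the longest to the left (7 of 8).

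Of 14 intestinal markers, 5 were called lower and 1, mtl-2, higher, beside 3.17% lower and 3.06% higher over all genes tested. The actin gene act-5, which builds the microvilli of the gut, was at 779, 1363 and 654 CPM in DMSO and at 470, 273 and 225 CPM in TBZ. All TBZ libraries were below all DMSO libraries, and the log2 change of -1.53 ± 0.26 (edgeR adjusted p = 0.00367) held with any 1 library left out. The log2 change of the intestinal proton pump subunit gene vha-6 was -1.22 ± 0.25, and that of the intestinal intermediate filament gene ifc-2 -1.43 ± 0.33. Both calls were lost without TBZ replicate 3, TBZ replicate 4 or DMSO replicate 2, with adjusted p up to 0.0978. The summed level of the 14 markers was 7993, 9351 and 7745 CPM in DMSO and 6656, 5659 and 5619 CPM in TBZ. The 19 muscle markers included 2 that were called lower and none called higher, beside the same shares. They were the troponin T gene tnt-2 (-0.55 ± 0.14) and the actin gene act-4 (-0.60 ± 0.12). The tnt-2 call was lost without TBZ replicate 3, TBZ replicate 4, DMSO replicate 2 or DMSO replicate 3, with adjusted p up to 0.136, and the act-4 call without TBZ replicate 4 (edgeR adjusted p = 0.0502). The summed level of the 19 was 10230 to 13790 CPM in DMSO and 7240 to 9704 CPM in TBZ. Of 19 neuronal markers none was called in either direction by edgeR, and 8 had an unadjusted p under 0.05, beside 3711 of all 17484 genes tested. DESeq2 called 1 of the 19 higher, and limma-voom called 2 higher and 1 lower. The 19 markers summed to 709 to 834 CPM in DMSO and 791 to 883 CPM in TBZ. The part of tissue content in the falls above was not tested.

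Some of the deepest falls rested on libraries that disagreed. Y39B6A.1, an abundant transcript, was at 1093, 2075 and 504 CPM in DMSO and at 126, 9.19 and 11.8 CPM in TBZ. Its log2 change of -4.64 ± 1.07 was lost without TBZ replicate 3, TBZ replicate 4 or DMSO replicate 2, with adjusted p up to 0.0921. The same 3 libraries decided cld-1, at -4.44 ± 1.01, with adjusted p up to 0.102. By contrast T16G1.7 had 49.3, 40.7 and 47.9 CPM in DMSO and 17.8, 9.29 and 8.53 CPM in TBZ, and its log2 change of -1.95 ± 0.24 held with any 1 library left out.

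The tubulin genes include the drug target. The ben-1 transcript itself was at 56.2, 66.2 and 50.8 CPM in DMSO and at 56.5, 53.4 and 54.6 CPM in TBZ, with overlapping groups and a log2 change of -0.07 ± 0.10 (edgeR adjusted p = 0.646). The e1880 allele is not described in the labels, so this level does not check the mutation, and ben-1 overlaps C54C6.9 on the other strand. Of 16 tubulin genes 1 was called, a share near the 6.23% over all genes. It was the alpha-tubulin gene tba-7, at 14.3, 22.5 and 10.8 CPM in DMSO and 8.90, 3.79 and 3.78 CPM in TBZ. That call was lost without TBZ replicate 3, TBZ replicate 4 or DMSO replicate 2, with adjusted p up to 0.135, and tba-7 overlaps other genes on both strands. Of 33 motor protein genes 1 was higher and 1 lower.

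Counts in the stress lists stand beside 6.23% called over all genes tested. Of 22 heat shock genes none was called higher and 1 lower, with a median log2 change of -0.03. Of 18 genes of the endoplasmic reticulum stress response none was higher and 2 were lower, with a median of -0.04. The transcription factor gene of that response, xbp-1, was at 308, 331 and 327 CPM in DMSO and at 256, 266 and 243 CPM in TBZ. Its log2 change was small at -0.34 ± 0.06, yet the groups did not overlap and it was called with any 1 library left out. Of 12 mitochondrial stress genes 1 was higher and 1 lower, and none of 7 genes of respiratory complex II was called by edgeR, with a median log2 change of -0.15. At an unadjusted p under 0.05 there were 3 of these, and DESeq2 called 1 lower and limma-voom 3. Over all 17484 genes tested these counts were 3711, 1132 and 1210. Of 26 antioxidant genes none was higher and 2 were lower.

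None of the 94 sperm, 25 oocyte and eggshell, 28 germline, 31 DNA replication, 80 ribosomal protein or 33 proteasome genes tested was called in either direction by edgeR. At an unadjusted p under 0.05 there were 0, 10, 10, 4, 3 and 7 genes in these lists, in that order. DESeq2 called 0, 4, 3, 2, 0 and 0 of them and limma-voom 0, 6, 4, 2, 0 and 6, all lower except for the 6 proteasome genes, which were higher. Over all 17484 genes tested, 3711 had an unadjusted p under 0.05. Of these 17484, DESeq2 called 931 higher and 1132 lower, and limma-voom 938 and 1210. The median log2 change was -1.26 over the sperm genes and lay at -0.19 over the germline genes and 0.10 over the proteasome genes. The sperm median is set against the 6841 CPM that these genes summed to in DMSO replicate 2, when the other DMSO libraries had 1058 and 1771 CPM and TBZ had 1353 to 1455 CPM. None of the 7 genes of the vitellogenin list, which includes the yolk receptor gene rme-2, was called by edgeR. Even so, their median log2 change was -1.09, 2 had an unadjusted p under 0.05, and DESeq2 called 1 lower and limma-voom 5. Their summed share was 7.82%, 5.77% and 3.39% in DMSO and 4.82%, 1.81% and 2.66% in TBZ, with overlapping groups and an exact two-sided permutation p of 0.2. Of 18 embryonic genes 1 was called, beside 6.23% of all genes tested. It was tbx-37, a transcription factor of the early embryo, which rose by 1.91 ± 0.33.

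To see which of these changes differed from those under a methyl carbamate, TBZ was compared directly with MBZ and with ABZ, 2 drug pairs at the same dose and time, within the same fit. These comparisons share the TBZ libraries with the one against DMSO. Against MBZ, 221 genes (1.26%) were higher in TBZ and 383 (2.19%) lower, 604 (3.45%) in all. Against ABZ, 419 (2.4%) were higher and 688 (3.94%) lower, 1107 (6.33%) in all. P-values were adjusted over all genes within each pair. Single MBZ or ABZ libraries were not left out.

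The response of cyp-35D1 was far larger under TBZ than under either carbamate. Its mean level was 1218 ± 66.9 CPM (SD, n = 3) in TBZ, 47.3 ± 4.97 CPM in ABZ and 2.57 ± 0.584 CPM in MBZ, and the difference was 4.68 ± 0.22 on the log2 scale against ABZ (edgeR adjusted p = 4.13e-08) and 8.89 ± 0.27 against MBZ (edgeR adjusted p = 7.75e-11). Levels in FBZ and OxBZ, not tested against TBZ, were 0.985 ± 0.292 and 10.8 ± 1.35 CPM. The paralog cyp-35C1 went the other way, with 75.8 ± 40.2 CPM in TBZ, 1128 ± 76.4 CPM in ABZ and 387 ± 108 CPM in MBZ. It was lower in TBZ by 3.90 ± 0.36 than in ABZ and by 2.35 ± 0.34 than in MBZ, so the members of 1 family were ordered differently by the drugs. Of the 10 cyp-35 genes, 3 were higher and 2 lower than in MBZ, and 1 was higher and 4 lower than in ABZ. For cyp-35A4 no difference was detected, with 95% intervals of -0.65 to 1.92 against ABZ and -0.87 to 1.69 against MBZ. These intervals leave room for differences of more than 2-fold in either pair.

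Over all 74 P450 genes, more were lower than higher in TBZ against either carbamate. In number, 4 were higher and 26 lower than in MBZ, and 4 were higher and 17 lower than in ABZ. The largest was cyp-13A6, at 3.88 ± 3.03 CPM in TBZ, 3.63 ± 1.16 CPM in ABZ and 441 ± 58.4 CPM in MBZ. It was lower than in MBZ by 6.83 ± 0.54 on the log2 scale (edgeR adjusted p = 5.29e-06), and differed from ABZ by 0.09, with a 95% interval of -0.87 to 1.05. The level of cyp-33C7 was 4.26 ± 0.345 CPM in TBZ, 11.4 ± 3.09 CPM in DMSO, 22.7 ± 11.1 CPM in ABZ and 86.8 ± 19.2 CPM in MBZ, so that the TBZ mean lay below that of the solvent and both carbamate means above it. The difference was -4.35 ± 0.33 against MBZ and -2.42 ± 0.31 against ABZ. Its fall against DMSO was lost without TBZ replicate 3, TBZ replicate 4 or DMSO replicate 3, with adjusted p up to 0.0683. Among UDP-glucuronosyltransferases, 10 were higher and 16 lower than in MBZ, and 5 were higher and 16 lower than in ABZ. The level of ugt-8 exceeded that in MBZ by 1.29 ± 0.18, and was not called against ABZ, with a 95% interval of -0.90 to -0.14 before adjustment and an edgeR adjusted p of 0.101.

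**Figure D5:**
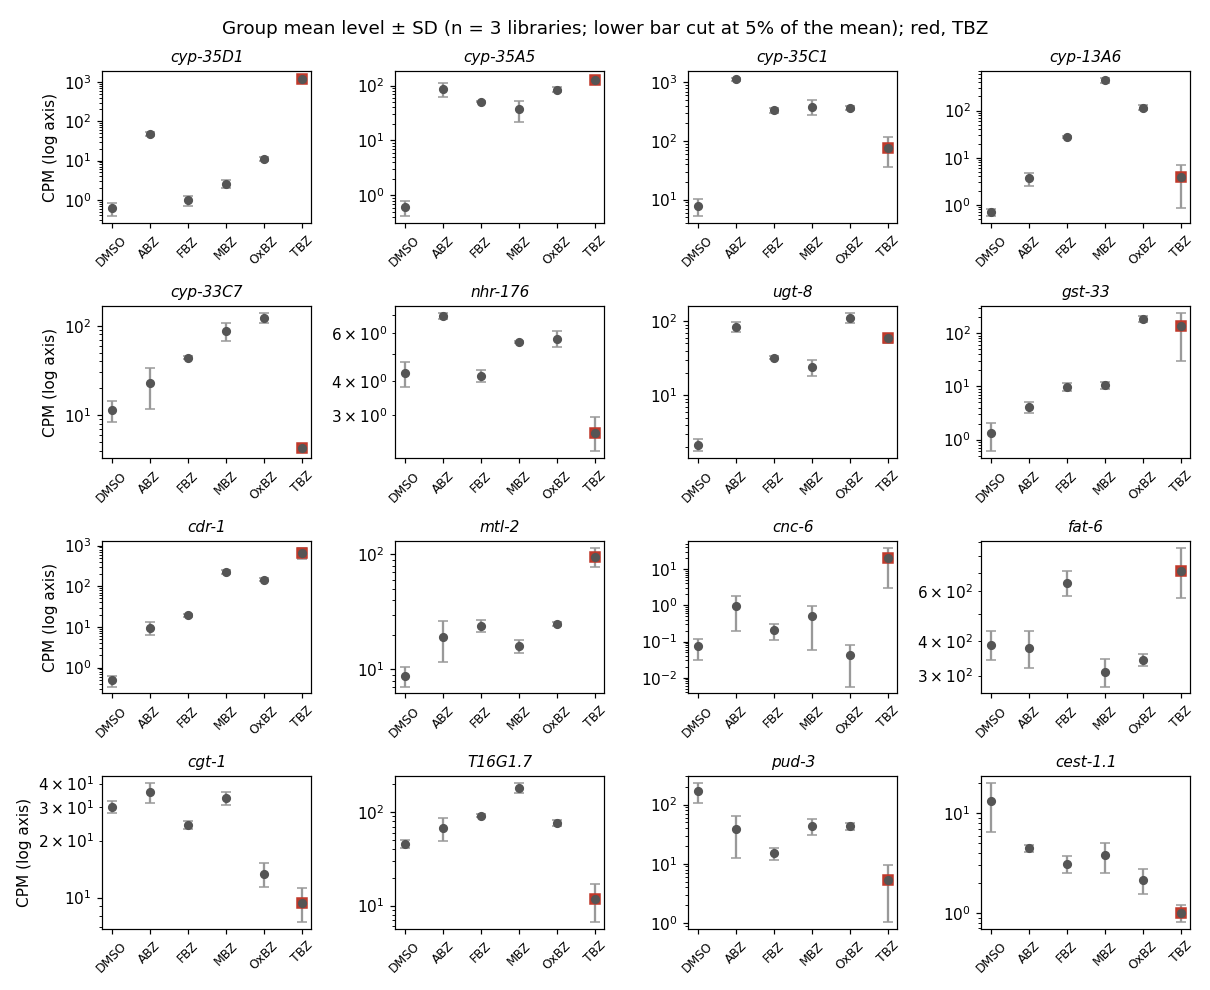
Each panel shows 1 gene; the vertical axis is the group mean level in CPM on a log axis for DMSO and the 5 drugs, and bars are the SD of 3 libraries. TBZ (red square) is highest for cyp-35D1, cyp-35A5, cdr-1, mtl-2 and cnc-6 and lowest for cyp-33C7, nhr-176, T16G1.7, pud-3 and cest-1.1.

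Of 14 metal-response genes, 2 were higher and 3 lower in TBZ than in MBZ, and likewise 2 and 3 against ABZ. The level of cdr-1 was 668 ± 206 CPM in TBZ, 220 ± 24.6 CPM in MBZ and 9.56 ± 3.37 CPM in ABZ, a difference of 1.60 ± 0.24 and 6.13 ± 0.29 on the log2 scale. For mtl-2 the differences were 2.59 ± 0.26 and 2.33 ± 0.25. Going the other way, cdr-2 was lower than in MBZ by 2.49 (edgeR adjusted p = 0.0048) and than in ABZ by 2.72 (edgeR adjusted p = 0.00194). The iron exporter gene fpn-1.1 was lower in TBZ than under either carbamate, with differences of -0.68 ± 0.11 against MBZ (edgeR adjusted p = 0.00287) and -0.92 ± 0.11 against ABZ (edgeR adjusted p = 0.000196). The receptor gene nhr-176 was lower in TBZ than in MBZ by 1.1 ± 0.14 and than in ABZ by 1.42 ± 0.14.

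Of the genes known only by sequence names, F48C1.9 was higher in TBZ than in MBZ by 6.99 ± 1.09 and than in ABZ by 5.95 ± 1.03. The antimicrobial peptide gene fipr-24 was higher by 5.14 ± 0.81 and 3.59 ± 0.75. For cnc-6 the differences were 5.37 ± 1.18 and 4.41 ± 1.12. The desaturase gene fat-6 was higher by 1.2 ± 0.15 and 0.92 ± 0.15, with 310 ± 35.5 CPM in MBZ and 377 ± 56.1 CPM in ABZ against 712 ± 146 CPM in TBZ. The fall of cgt-1 was found against both carbamates, at -1.84 ± 0.15 and -1.95 ± 0.15.

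Some genes that fell against DMSO were lower in TBZ than in the carbamates, and others were not called in these pairs. T16G1.7 was at 11.9 ± 5.13 CPM in TBZ, 45.9 ± 4.62 CPM in DMSO, 68.2 ± 19.3 CPM in ABZ and 183 ± 22.4 CPM in MBZ, a difference of -3.94 ± 0.26 from MBZ and -2.52 ± 0.25 from ABZ. Its neighbour T16G1.5 differed by -3.52 ± 0.30 and -2.54 ± 0.29. For pud-3 the differences were -3.03 ± 0.55 and -2.86 ± 0.55, and C08E8.4 was lower than in ABZ by 3.94 ± 0.43 and than in MBZ by 3.08 ± 0.41. The collagen genes col-80 and col-93 were not called against either drug. Their 95% intervals before adjustment were -1.55 to -0.02 and -1.35 to 0.19 against MBZ. The propionate gene acdh-1 was not called either, at -0.49 to 0.13 against MBZ and -0.68 to -0.05 against ABZ before adjustment. Because some of these intervals lie wholly below zero, the lack of a call does not show that the drugs were alike. Of 152 fbxa genes, 1 was higher and 15 lower than in MBZ, and 1 was higher and 21 lower than in ABZ. Of 33 proteasome genes 10 were higher in TBZ than in MBZ and 2 higher than in ABZ, and of 18 embryonic genes 4 and 9 were higher.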

How the data were processed

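Whole-worm RNA was sequenced as paired-end reads of 100 nt. The authors deposited raw read counts per gene, made with Subread 1.4.6 and featureCounts per the submitters' processing notes; no source used here names the genome build, annotation or strand setting. In R 4.3.3, edgeR 4.0.16 (TMM factors, filterByExpr with a minimum count of 10) was run on all 18 libraries together by its robust quasi-likelihood method, with 1 coefficient for each of the 6 groups (12 residual degrees of freedom). Benjamini-Hochberg adjustment covered 17484 genes, with a threshold of 0.05. SEs are approximate (the size of the log2 change divided by the root of F). CPM use TMM factors; comparisons between libraries use a pseudocount of 0.1 CPM. The fit was run on simulated counts in which a gene had the same dispersion in every library. That run held no outlying libraries, so it cannot check the calls against the library differences seen here.

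Gene lists were described by their counts of calls. Named genes were ben-1, all tubulins, cyp-35D1, nhr-176, the 15 largest rises and 10 largest falls without overlap at 1 CPM or more, up to 4 called genes per list, and the 3 largest differences each way from MBZ and ABZ. Other genes in the text were chosen after their values were seen: cyp-35 members beyond the rule, gst-27 to gst-29, gst-34, ugt-10, ugt-14, mtl-1, fat-7, lin-28, pud-4 and bcmo-2. Members and lists were chosen with earlier results of these data known. Ensembl release 115 gave neighbours and overlaps; no coordinates or sequences are given. Floors cover counting error only. DESeq2 1.42.0, limma-voom (limma 3.58.1), other filters and factors, a replicate block and leaving out libraries were tried.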

Additional observations from a re-analysis of the deposited data

How the results depend on the processing

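The counts of called genes depended on the tool and on single libraries more than on filters or scaling. DESeq2 called 931 genes higher and 1132 lower against DMSO, 1045 against MBZ and 1923 against ABZ, and limma-voom with quality weights called 938, 1210, 3976 and 2632. Fits to the compared groups alone called 11, 1, 212 and 44. Leaving out 1 library gave 220 to 1008 genes higher and 166 to 1110 lower against DMSO, 286 to 1659 against MBZ and 607 to 1612 against ABZ, with the fewest calls without TBZ replicate 3 or 4 and the most without TBZ replicate 2. For the MBZ and ABZ pairs only TBZ libraries were left out, never an MBZ or ABZ library. On the axis of largest spread over all libraries (principal component 1), ABZ replicate 2 stood at 113.8 and ABZ replicates 1 and 3 at -5.307 and 12.68. The part of ABZ replicate 2 in the ABZ results was not tested. Without DMSO replicate 2 the counts were 301 and 305, and without both libraries numbered 2 they were 770 and 770. The other filters and scalings gave 509 to 578 higher and 520 to 637 lower, within 1.5 times the reported counts. No called change of a named gene reversed under these settings. Of 171 named genes, the fit to 6 libraries lost the call of 143, and leaving out TBZ replicate 4 that of 74. The cause of these differences was not tested.

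The labels do not say that a replicate number marks a shared culture or batch, and TBZ and DMSO share only 2 numbers, so pairing was not assumed. Across genes, the deviations of TBZ replicate 3 correlated best with DMSO replicate 3 (0.367, against -0.149 and -0.111 with the others), whereas those of TBZ replicate 2 correlated better with DMSO replicate 1 (0.183) than with DMSO replicate 2 (0.0899). A replicate block in all 18 libraries gave 255 genes higher and 233 lower against DMSO, 307 against MBZ and 713 against ABZ. A replicate block with only shared numbers gave 0 and 0 by edgeR, with 1733 genes at an unadjusted p under 0.05, and 63 against MBZ and 0 against ABZ. The difference in the ribosomal protein share, 0.758 percentage points, ranged from 0.469 to 1.04 with 1 library left out. The difference in the vitellogenin share was -2.57 points, and -0.0648 points once the 10 most abundant genes were left out of all counts. That setting also took any members of the vitellogenin list among the 10 out of the share, so -0.0648 covers only the less abundant members of the list. The share of the 10 most abundant genes differed by -2.54 points. Groups of 3 limit every test, and the exact tests cannot go below 0.1.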

Other observations

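A few gene families outside the lists were looked at after their values were seen. Of 8 far genes, which encode fatty acid and retinol binding proteins, 4 were called higher and none lower, with log2 changes of -0.34 to 6.83. The most abundant, far-3, was at 13.9, 6.76 and 37.4 CPM in DMSO and 132, 423 and 405 CPM in TBZ, and was higher than in MBZ by 3.60 ± 0.53 and than in ABZ by 2.21 ± 0.50 on the log2 scale. Of 14 nspg genes 1 was higher and 6 were lower, of 28 clc genes none was higher and 5 were lower, and of 4 poml genes none was higher and 3 were lower. Against these stand shares of 3.06% and 3.17% over all genes tested.

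Apart from the genes named above, the fit to the 6 libraries alone called R09E12.9, ugt-45, cest-33 and C09D4.1 higher. R09E12.9 was at 0.847, 1.60 and 0.486 CPM in DMSO and 88.9, 111 and 113 CPM in TBZ, a log2 change of 6.75 ± 0.39 in the fit to all libraries. For ugt-45 the levels were 10.4 to 11.9 CPM against 28, 38.3 and 36 CPM, and for C09D4.1 29.7, 28.5 and 29.3 CPM against 53.1, 62.6 and 54.5 CPM. In these 3 genes every TBZ library was above every DMSO library, TBZ replicate 2 included.

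Neighbouring genes called in the same direction were found in 9 runs of at least 3 among 17053 tested protein-coding genes, 3 higher and 6 lower. Besides the ugt, pud and gst runs these included the chitinase-like genes chil-21 to chil-23, higher by 0.74 to 1.97 on the log2 scale, and the collagen genes col-92 to col-94, lower by 2.04 to 1.73. Without TBZ replicate 3 the calls of chil-21, chil-22 and chil-23 were lost, with edgeR adjusted p of 0.165, 0.148 and 0.061. The col-92 call was lost without that library as well (edgeR adjusted p = 0.0556).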
